A study of Mus musculus with 8 samples.

Results

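Replication-dependent histone genes encode the bulk of the H1, H2A, H2B, H3 and H4 proteins of chromatin. They were taken as every row of the transcript count table whose RefSeq identifier maps to a symbol of the H1c, H2ac, H2bc, H3c or H4c series or to an older Hist1 to Hist4 name of those classes. This gave 67 genes among 21643 gene symbols, held in 76 of 28157 rows, and the row with the most counts stood for each gene. Of the 67, 57 matched by their current symbol and 10 only by an older name, among them H4bc24, whose older name Hist1h2br places it in the H2B class. By class there were 6 H1, 18 H2A, 18 H2B, 12 H3 and 13 H4 genes. The test kept 64 of them; H1f6, the testis linker histone, had 0 counts, H2ac1, a testis H2A, had 1 count, and H4f16 had 23 counts over all libraries.

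Most messenger RNAs end in a poly(A) tail, but those of replication-dependent histones end in a short conserved stem-loop that is bound by the stem-loop binding protein SLBP. The genes have no introns, lie in clusters, and are switched on together in S phase, when a dividing cell must package newly copied DNA. Neurons do not divide, and their chromatin is supplied to a larger part by replacement histones, whose messages are mostly polyadenylated and made outside S phase.

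The stem-loops are shown because they are the feature that sets these messages apart and because their place in each annotated transcript bears on the corrected values given further on. They were searched for in the GENCODE M21 transcripts of each gene as a stem of 6 paired bases that begins with GG around a loop of 4 bases that begins with TT. One was found in 44 of 67 genes (65.7%), and the same 16 bases occurred in transcripts of 3 of 55274 other GENCODE genes (0.00543%), named there Gm20634, H2bfm and Trim17. The 6 forms found are given as DNA, 5′ to 3′, with the paired stem in capitals and the loop in lower case.
26 genes (3 H1, 10 H2A, 8 H2B, 5 H3): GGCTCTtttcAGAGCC
7 H4 genes, among them H4c4 and H4c3: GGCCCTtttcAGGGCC
6 genes (H1f6, H2bc12, H2bc3, H3c3, H3c6, H3c7): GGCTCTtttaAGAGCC
H4c9 and H4c14: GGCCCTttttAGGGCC
H4c2 and H4c11: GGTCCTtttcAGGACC
H2ac20: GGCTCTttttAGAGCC
Outside H4 the stem had the same letters in every gene where one was found and the forms differed in the loop, while the H4 stems had other letters.

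Promoter sequence was examined because the genes moved together. RefSeq promoter windows (GRCm38.p6) were found for 62 members. TATAAA, read on the strand of the gene, was present in 48.4% of them against 8.88% of 27025 windows of the same length. CCAAT, read on both strands, was present in 85.5% against 37.9%; it was in all 6 H1, 18 H2A, 16 H2B and 10 H3 windows and in 3 of 12 H4 windows (25%). The octamer ATTTGCAT, read on both strands, was in 21% of members against 1.75% of all windows; it was in 38.9% of H2A and 37.5% of H2B windows and in none of the 6 H1, 10 H3 or 12 H4 windows. The 250 bases upstream of H2bc12 and of H4c4 are given as examples. Capitals mark TATAAA on the strand of the gene and CCAAT and ATTTGCAT on either strand. H4c4 is among the 3 H4 windows that hold CCAAT, here read as ATTGG, so in that motif it differs from most of its class.
H2bc12, chr13:22035571-22035820, + strand: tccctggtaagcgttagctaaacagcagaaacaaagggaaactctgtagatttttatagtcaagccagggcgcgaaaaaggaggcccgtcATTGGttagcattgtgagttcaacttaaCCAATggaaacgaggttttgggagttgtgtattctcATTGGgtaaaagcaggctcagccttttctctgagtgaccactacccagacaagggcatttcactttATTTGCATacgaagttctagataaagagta
H4c4, chr13:23581318-23581567, + strand: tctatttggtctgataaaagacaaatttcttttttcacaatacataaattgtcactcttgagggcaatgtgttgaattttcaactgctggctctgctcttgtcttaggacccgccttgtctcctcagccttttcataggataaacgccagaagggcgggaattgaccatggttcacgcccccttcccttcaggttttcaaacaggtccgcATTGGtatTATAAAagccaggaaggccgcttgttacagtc
H2bc12 is transcribed away from H2ac12, and their promoter windows on opposite strands share 277 bases. These matches describe the letters of the windows and do not show that a factor binds there.

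The RNA came from polyribosomes, so the counts describe messages associated with ribosomes, in C57BL/6 mice 7 to 9 weeks old. Controls were exposed to the context alone, and the others underwent contextual fear conditioning, in which a place is paired with a shock. Frontal cortex and hippocampus were each sampled at 1 h and 6 h in controls and conditioned mice, with 1 library for each of the 8 combinations. The labels count 4 control and 4 conditioned mice without tying a mouse to a library, and the extraction text describes prefrontal cortex only. Ribosomal RNA was depleted and cDNA was primed from random hexamers as well as from poly(A) tails before SPIA amplification and PCR, so RNAs with and without a poly(A) tail could be copied. No molecular identifiers are described, so counting intervals cover counting error only.

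Library totals ran from 2370973 counts in the hippocampus control 6 h library to 5296986 in the cortex conditioned 6 h library. The cortex and hippocampus libraries of conditioned mice at 1 h differed by less than the other pairs did: the variance of their difference was 1.064 times that of counting noise over 11599 genes, against 4.760 for the next closest pair. They were therefore summed and counted as 1 sample, which leaves 7 samples, 3 at 1 h and 4 at 6 h, and this sample belongs to neither tissue. All 5 cortex markers were lower and all 6 hippocampus markers higher in hippocampus by edgeR's quasi-likelihood test. The hippocampus control 6 h library stood apart: Kif5c alone took 8.01% of its counts, against 0.0382% to 0.545% elsewhere. Levels are CPM, counts per 1000000 of a library's TMM-scaled total, and are not divided by transcript length. Per-sample values are listed for cortex control, hippocampus control and the summed conditioned sample at 1 h, and then for cortex control, cortex conditioned, hippocampus control and hippocampus conditioned at 6 h.

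Without correction for GC content and transcript length, histone transcripts of all 5 classes were lower at 6 h than at 1 h. Summed over the 67 genes they stood at 2483, 2050 and 2004 CPM at 1 h and at 637, 464, 359 and 1120 CPM at 6 h. Every 6 h sample lay below every 1 h sample, with the hippocampus conditioned sample closest. The mean was 2179 ± 264 CPM (SD, n = 3) at 1 h and 645 ± 337 CPM (SD, n = 4) at 6 h, a difference of -1.89 in mean log2 CPM, or 3.69-fold lower at 6 h. A two-sided exact permutation test over samples gave p = 0.0571 for this sum and for each class, the smallest value that 3 against 4 samples allow. In bulk tissue fewer cells of a type and less RNA per cell cannot be told apart, and time and anything else that differed between the 1 h and 6 h libraries cannot be told apart either.

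**Figure D1:**
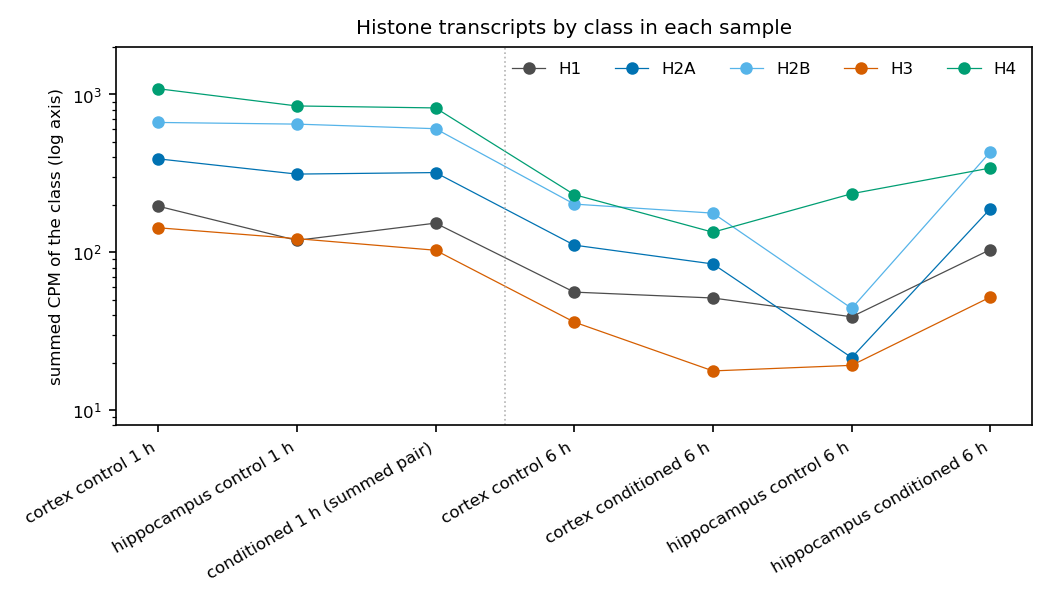
Summed CPM of each histone class (y, log axis) in the 7 samples (x), 1 point per class and sample; the dotted line parts 1 h from 6 h, and lines only join points of a class. All classes lie lower at 6 h, and in the hippocampus control 6 h sample H2A and H2B lie at 21.5 and 44.1 CPM while H4 is at 235 CPM.

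Gene by gene, edgeR's quasi-likelihood test with tissue and training as covariates called 55 of 64 members lower at 6 h and 0 higher (Benjamini-Hochberg adjusted p below 0.05 over all rows). Of the whole table, a share of 17.2% of 16378 rows were called lower and 20.5% higher. The median log2 change of the members was -1.91, against -0.03 for all rows. With GC content and length taken out, as described further on, 16 of 64 members were called lower (median -0.51). Of 15896 rows 4.09% were then lower. With annotated transcripts that hold a stem-loop also ended there, 5 of 64 were called lower (median -0.25), with 4% of rows. The values that follow here are uncorrected. In 58 of 64 members every 6 h sample was below every 1 h sample, a pattern that 21.2% of all rows showed. The count of members called moved with single samples. It was 0 without the cortex control 1 h library, where 0 rows of the table were called. When the 1 h hippocampus control was left out it was 22, with 664 of 16437 rows lower. When the 6 h conditioned cortex was left out it was 36, with 973 of 16169 rows lower. The median log2 change over these fits lay between -1.56 and -2.45 when each sample was left out in turn.

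**Figure D2:**
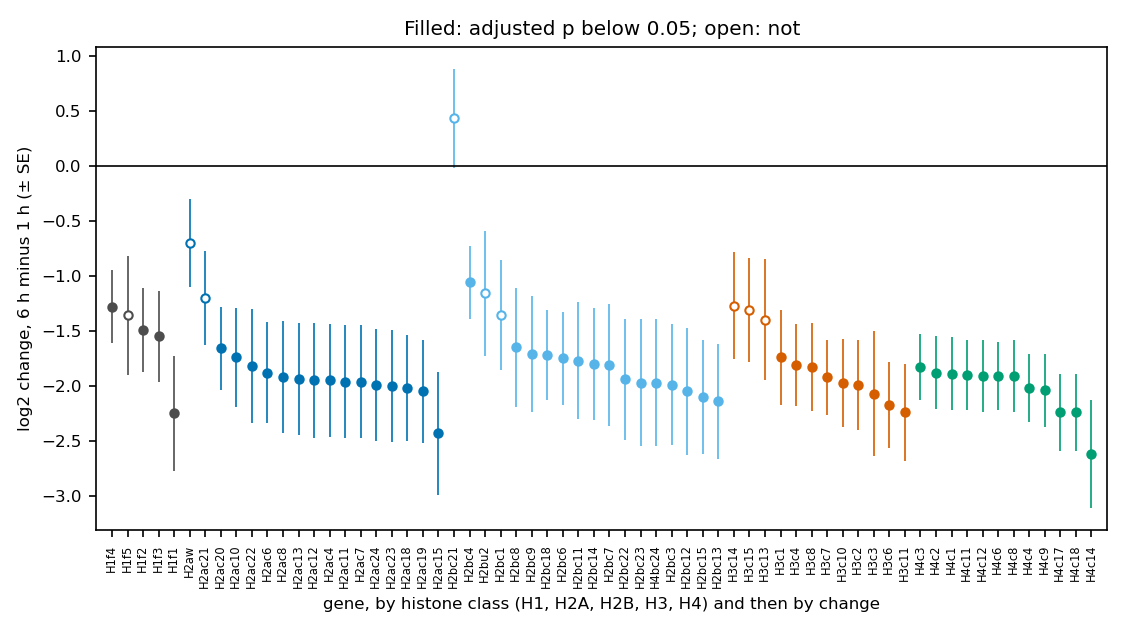
The log2 change from 1 h to 6 h (y) of each of the 64 genes tested (x, grouped and coloured by class), with the standard error of the fit; filled points passed an adjusted p of 0.05. All but H2bc21, at 0.43, lie below 0, and the lowest is H4c14 at -2.62.

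The linker histones, class H1, bind the DNA that enters and leaves the nucleosome. Of 5 tested, 4 were lower, with a class median of -1.49. H1f4 was at 109, 66.8 and 87 CPM at 1 h and at 33.8, 30.3, 27.1 and 61.1 CPM at 6 h, a log2 change of -1.28 ± 0.33 (SE, adjusted p = 0.0159). H1f2 went from 48.2, 29.8 and 32.4 CPM to 13.2, 12.6, 6.22 and 22 CPM, a log2 change of -1.49 ± 0.38 (adjusted p = 0.0156). For both genes the groups did not overlap, and the hippocampus conditioned sample was the highest at 6 h. H1f3 was at 26.7, 18.5 and 23.7 CPM and then at 6.61, 5.91, 4.52 and 17.4 CPM (log2 change -1.55 ± 0.41, adjusted p = 0.018). H1f1 had the largest H1 change, -2.25 ± 0.52 (adjusted p = 0.0115), on 135 counts in all; it was at 8.39, 2.83 and 7.54 CPM and then at 0.567, 1.53, 1.13 and 2.75 CPM. H1f5, with 59 counts in all, was the H1 gene that missed the threshold (-1.36 ± 0.54, adjusted p = 0.0682).

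H2A and H2B pair in a dimer, and each nucleosome holds a pair of such dimers. Of 17 H2A genes tested, 15 were lower, with a median of -1.95. H2ac18 was at 35.4, 31.8 and 26.9 CPM at 1 h and at 9.82, 5.91, 1.13 and 12.8 CPM at 6 h (log2 change -2.02 ± 0.48, adjusted p = 0.0124). Its neighbour in name H2ac19, a near-identical copy, gave 33.6, 28.5 and 24.7 CPM and then 8.69, 5.15, 1.13 and 11.7 CPM (-2.05 ± 0.47, adjusted p = 0.0115). The 6 h values of both were below all 1 h values and were lowest in the hippocampus control sample, where each had 2 counts. H2ac15 showed the largest change of the class (-2.43 ± 0.56, adjusted p = 0.0116): it fell from 18.6, 15 and 15.1 CPM to 2.46, 2.48, 0 and 7.55 CPM, and its count of 0 in the hippocampus control 6 h sample allows up to 1.7 CPM.

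H2aw stood apart within H2A. Its values of 26.5, 44.6 and 28.2 CPM at 1 h overlapped those of 24.7, 22.5, 7.91 and 26.5 CPM at 6 h, and its log2 change of -0.7 ± 0.4 did not pass (adjusted p = 0.18). H2ac21 was the other H2A gene not called (-1.2 ± 0.43, adjusted p = 0.0509).

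Of 18 H2B genes tested, 15 were lower, with a median of -1.79. H2bc8 was at 56.1, 53.3 and 52 CPM at 1 h and at 20.6, 15.1, 2.26 and 37.3 CPM at 6 h (log2 change -1.65 ± 0.54, adjusted p = 0.0368). H2bc23 was at 57.2, 57.4 and 52 CPM and then at 14.9, 14.5, 1.13 and 35.9 CPM (-1.97 ± 0.58, adjusted p = 0.0263). The 1 h values of these genes were close together, while the 6 h values were spread out, low in the hippocampus control sample and high in the hippocampus conditioned sample. H2bc4 fell least among the H2B genes called: 58.7, 79.6 and 58.5 CPM at 1 h and 29.5, 23.6, 20.3 and 57.2 CPM at 6 h (-1.06 ± 0.33, adjusted p = 0.0321). Its hippocampus control 6 h value rested on 36 counts, more than for any other H2B gene there.

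H2bc21, which encodes an H2B variant described in olfactory neurons, was the only tested member with a positive change. It was at 2.62, 6.74 and 5.22 CPM at 1 h and at 7.93, 4.2, 2.83 and 9.61 CPM at 6 h, so the groups overlapped (log2 change 0.43 ± 0.45, adjusted p = 0.462). Its change was -0.22 without the cortex control 6 h library. The other H2B genes not called were H2bc1, a testis H2B (-1.36 ± 0.5, adjusted p = 0.0554), and H2bu2 (-1.16 ± 0.57, adjusted p = 0.123).

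H3 and H4 form the tetramer at the centre of the nucleosome. Of 12 H3 genes tested, 9 were lower, with a median of -1.87, and in all 12 the 6 h values lay below the 1 h values. H3c6 was at 18.9, 14.6 and 15.5 CPM at 1 h and at 3.4, 1.72, 3.39 and 6.18 CPM at 6 h (log2 change -2.17 ± 0.39, adjusted p = 0.00672). H3c7 was at 16.3, 14.4 and 11.9 CPM and then at 2.83, 2.29, 5.09 and 5.04 CPM (-1.92 ± 0.34, adjusted p = 0.0064). H3c4 was at 12.8, 12.6 and 9.74 CPM and then at 3.59, 1.72, 2.26 and 4.81 CPM (-1.81 ± 0.37, adjusted p = 0.00902). These 3 genes were lowest at 6 h in the cortex conditioned sample. So were 5 of the 12 H3 genes in all, 1 of 17 H2A and 0 of 18 H2B genes tested. In the hippocampus control sample 7 H3, 16 H2A and 17 H2B genes were lowest. The 3 H3 genes not called, H3c13, H3c14 and H3c15, are near-identical copies with changes of -1.4, -1.27 and -1.31 and adjusted p between 0.0505 and 0.0665.

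All 12 H4 genes tested were lower, with changes from -2.62 to -1.83 and a median of -1.91. H4c4 had 5981 counts in all: it was at 341, 257 and 270 CPM at 1 h and at 65.9, 42.1, 79.1 and 107 CPM at 6 h (log2 change -2.02 ± 0.31, adjusted p = 0.0064). H4c9 was at 93.6, 73.5 and 70.2 CPM and then at 20, 10.7, 17.5 and 28.4 CPM (-2.04 ± 0.33, adjusted p = 0.0064). For H4c3 the values were 90.5, 72.4 and 69.7 CPM and then 22.3, 11.6, 24.9 and 28.6 CPM (-1.83 ± 0.3, adjusted p = 0.0064). The 1 h values of these genes exceeded every 6 h value, and the cortex conditioned sample was the lowest. H4c14 fell most of all members, by 2.62 ± 0.49 on the log2 scale (adjusted p = 0.007), from 32, 22.6 and 23.2 CPM to 2.83, 4.77, 1.13 and 10.3 CPM.

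By the older cluster names, a split described after the values were seen, 50 of 52 tested Hist1 genes were lower (median -1.92), 5 of 10 Hist2 genes (median -1.53) and 0 of 2 Hist3 genes, H2aw and H2bu2 (median -0.93). Of all rows 17.2% were lower. The Hist2 genes H2ac21, H3c13, H3c14 and H3c15 narrowly missed the threshold, with adjusted p in the edgeR fit from 0.0505 to 0.0665. Copies that share sequence are counted separately here, and the clusters were not tested against each other. The Hist2 genes held both extremes, H4c14 at -2.62 and H2bc21 at 0.43.

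**Figure D3:**
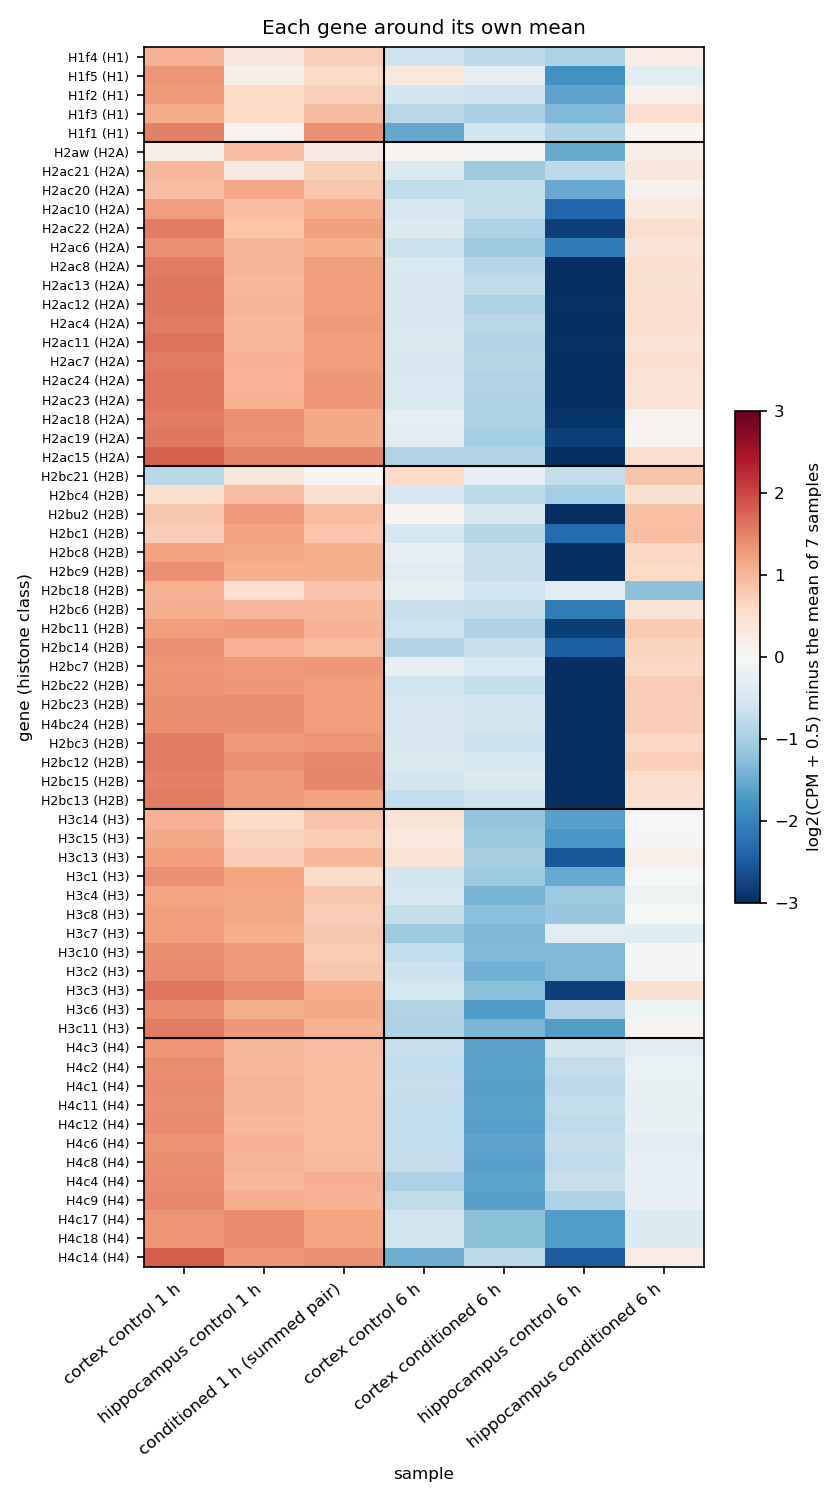
Each row is 1 of 64 genes, grouped by class; colour is log2(CPM + 0.5) in a sample minus the gene's mean over the 7 samples (x), red above and blue below. The 3 columns at 1 h are red in nearly every row, and the hippocampus control 6 h column is deep blue for most H2A and H2B rows and paler for most H4 rows.

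The fall could be read within each pair of matched samples, as ratios of log2(CPM + 0.5) with no replicate and so no test. In cortex controls the 6 h to 1 h ratio had a median of -1.97 over the 64 members and was negative in 63; H2bc21 was at 1.43. In hippocampus controls it had a median of -3.1 and was negative in all 64. Set against the summed conditioned 1 h sample, cortex conditioned at 6 h gave a median of -2.03, negative in 64, and hippocampus conditioned at 6 h a median of -0.8, negative in 62. The 2 ratios against that sample share it. Over all rows the medians of these 4 ratios lay between -0.08 and 0.02.

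The share of each class differed between samples, most in the hippocampus control 6 h library. In the 3 samples at 1 h, H4 took 41% to 43.8% of the counts on members, H2B 26.8% to 31.7% and H2A 15.3% to 16%. In the hippocampus control 6 h library H4 took 65.5% of 635 counts (95% Wilson interval 61.7% to 69.1%), H2B 12.3% (9.95% to 15.1%) and H2A 5.98% (4.39% to 8.11%). The intervals treat counts as independent and would be too narrow where near-identical copies share reads. Class shares and sums would then also weigh such reads by the number of copies. In the other 6 h samples H4 took 28.8% to 36.4%, H2B 31.7% to 38.7% and H2A 16.9% to 18.2%. Of 64 members, 5 had 0 counts there and 36 had 1 to 3 counts; the median count was 1 for H2A, 2 for H2B, 2.5 for H3, 8 for H1 and 32 for H4. This is the library of fewest counts and of the high Kif5c share; their part in the class shift was not tested. Without it the class sums differed between times by -1.49 for H2A and -1.36 for H2B on the log2 scale, against -2.11 and -1.99 with it, and by -2.05 for H4, against -2.03.

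The counts of different members are not independent. Transcripts were linked where they shared at least 50% of the 50-base words of the shorter one, which put the 67 genes into 30 groups. One group held 11 H2A genes, another 11 H2B genes, another 9 H3 genes and another 6 H4 genes. H2bc23 and H4bc24 had the same count in all 8 libraries, as did H4c17 and H4c18, and 5 of the 6 grouped H4 genes had 32 counts each in the hippocampus control 6 h library. The treatment of reads that match several copies was not given in the sources used here. With 1 gene kept for each of the 27 groups tested, 20 of 27 were lower, beside 17.2% of all rows.

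Counts also followed the make-up of the transcripts. Across 11886 genes, which are not independent replicates, the log2 change from 1 h to 6 h went down with GC content (Spearman's rho -0.78) and up with length (0.37). Members had a median GC content of 58.1% and a median annotated length of 536 bases, against 50.4% and 3082 bases for all rows with a value. With each library's trend in GC content and length taken out, 16 of 64 members were called lower, with a median of -0.51; 4.09% of 15896 rows were then called lower. The H2A class went from 15 genes called to 1, and the H4 class from 12 to 5.

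These corrected values depended on where the annotation ends a transcript. H2ac4 and H2ac6 had 439 and 459 counts in all and uncorrected changes of -1.95 and -1.88. The model of H2ac4 has 473 bases and stops 11 bases past its stem-loop, while that of H2ac6 has 2482 bases and runs on for 2010 bases; after correction they stood at -0.25 and -2.32. The model linked to 23 of the 64 members holds no stem-loop; 18 of these were called before correction and 3 after, with medians of -1.91 and -0.32. Of 21 members whose model ends within 100 bases of the stem-loop, 0 were called after correction, with a median of -0.36; of 20 whose model runs on further, 13 were called, with a median of -1.4. Before correction 21 of 21 and 16 of 20 in these last groups were called, with medians of -1.96 and -1.78. When every model with a stem-loop was ended there before the correction and the other 23 were kept whole, an alternative added after seeing the data, 5 of 64 members were called lower and 1, H2aw, higher (0.86, adjusted p = 0.0325), with a median of -0.25 and 4% of rows called lower. Of the 5 lower, H1f3 and H3c7 had shortened models, while H2bc4, H2bc23 and H4bc24 have no stem-loop in theirs and were not shortened. The counts do not show which ends the transcripts had in this tissue.

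**Figure D4:**
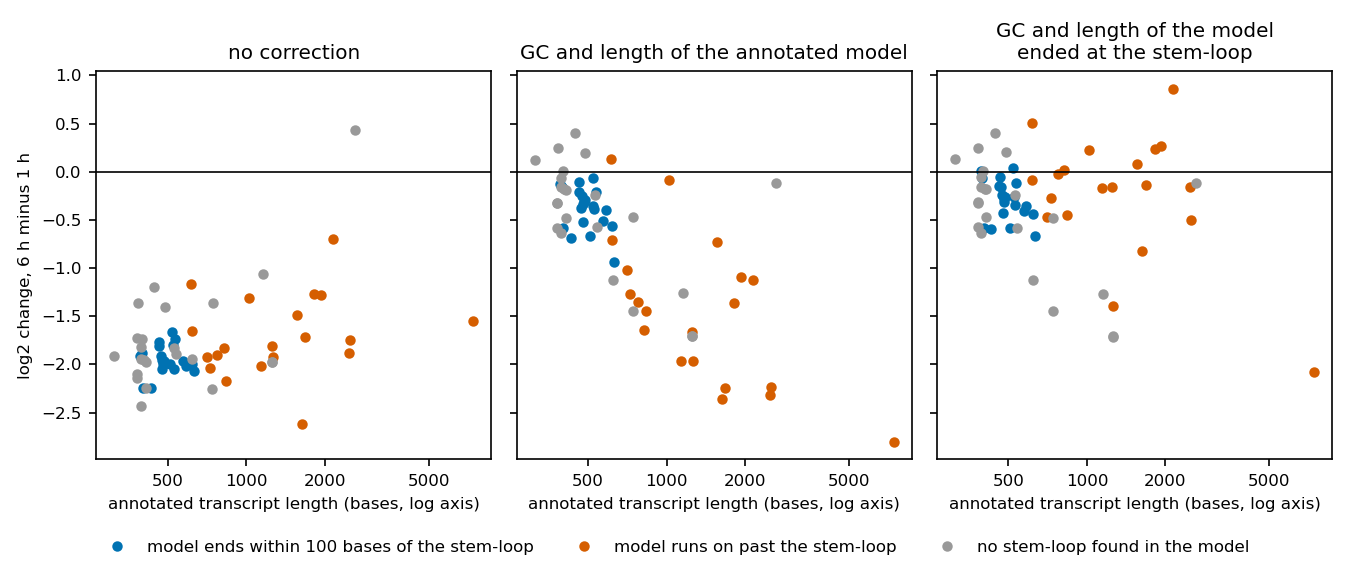
The log2 change from 1 h to 6 h (y) of the 64 genes against annotated transcript length (x, log axis), without correction (left), with GC and length taken out (middle) and with the models that hold a stem-loop first ended there (right). Changes lie around a median of -1.91 on the left, fall with length in the middle, and lie around a median of -0.25 on the right.

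Between tissues, 0 of 64 members were called in either direction, while 3.43% of rows were. The median was 0.12 for hippocampus minus cortex, and it was -0.17 without the cortex conditioned 6 h library and -0.64 without the hippocampus conditioned 6 h library. At an unadjusted p below 0.05 there were also 0 members, against 2533 of 16378 rows, and DESeq2 and limma-voom called 0 members. The matched ratios did not point one way: hippocampus to cortex gave a median of -0.32 in controls at 1 h, -1.58 in controls at 6 h and 1.28 in conditioned mice at 6 h.

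Fear conditioning against context alone gave 0 of 64 members called, and 0% of rows. The median was 0.28; its sign turned when the hippocampus control (-0.07) or the hippocampus conditioned (-0.13) library of 6 h was left out, and it was 0.83 without the conditioned 1 h pair. At an unadjusted p below 0.05 there were 0 members, against 296 of 16378 rows, and DESeq2 and limma-voom also called 0. The summed level was 1382 ± 1042 CPM in controls (SD, n = 4) and 1196 ± 773 CPM in conditioned samples (SD, n = 3), a difference within the spread (-0.04 in mean log2 CPM, two-sided exact permutation p = 0.971). Within 6 h, cortex and hippocampus pointed opposite ways: conditioned to control gave a median of -0.45 in cortex, negative in 57 of 64 members, and 2.17 in hippocampus, positive in 62. In hippocampus the medians were 1.5 for H1, 3.4 for H2A, 3.75 for H2B, 1.39 for H3 and 0.54 for H4. Counts in the control library were mostly 0 to 3 for H2A, H2B and H3. At 1 h the conditioned sample was a median of -0.3 from cortex control and -0.03 from hippocampus control.

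The training by tissue interaction was fitted over all 7 samples, both times together, with the summed 1 h sample at a tissue value of 0.5. It is therefore not a test of the 6 h ratios alone, which have no replicate. The edgeR fit called 0 of 64 members and 0% of rows, with a median of 1.92. Its unadjusted p was below 0.05 for 28 members and for 696 of 16378 rows. DESeq2 and limma-voom called 0 members. The interaction moved with single libraries. Without the hippocampus control 6 h library 30 members were called higher (median 1.57, with 3.11% of rows called higher), and without the hippocampus control 1 h library 53 (median 3.66, 14.7% of rows). The median was 0.15 when the hippocampus conditioned 6 h library was left out and 4.06 when the cortex conditioned 6 h library was.

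Related genes were read beside the members, from lists drawn up with earlier results of these data known. Their counts stand against 20.5% of all rows called higher and 17.2% lower, with a median of -0.03, and with GC content and length taken out against 6.96% higher and 4.09% lower, with a median of -0.02. The list of replacement histones, in which H2ax was placed, had 3 of 10 tested genes lower and 0 higher, with a median of -0.57. H1f10 was at 6.29, 6.31 and 4.06 CPM at 1 h and at 0.756, 0.572, 1.7 and 1.83 CPM at 6 h (log2 change -2.16 ± 0.44, adjusted p = 0.00888). H2aj and H2ax, whose product marks DNA breaks when phosphorylated, both changed by -1.79 (adjusted p = 0.0098 and 0.022). H2ax, like most H2A and H2B genes, had its lowest value in the hippocampus control 6 h sample, 3.39 CPM against 21.2 to 43 CPM in the other 6 h samples. The replacement histones H3f3a (0.03 ± 0.25, adjusted p = 0.936) and H2az1 (-0.03 ± 0.25, adjusted p = 0.938) were not called; Macroh2a2, a large H2A variant of silent chromatin, was at 0.85 ± 0.35 (adjusted p = 0.0751). With GC content and length taken out, 1 of the 3 calls remained, H2aj at -1.14 (adjusted p = 0.0372), while H1f10 was at -0.81 (0.274) and H2ax at -0.5 (0.296). The replacement histone H3f3b was then also lower (-1.48, 0.0108) and Macroh2a2 higher (1.39, 0.0348).

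**Figure D5:**
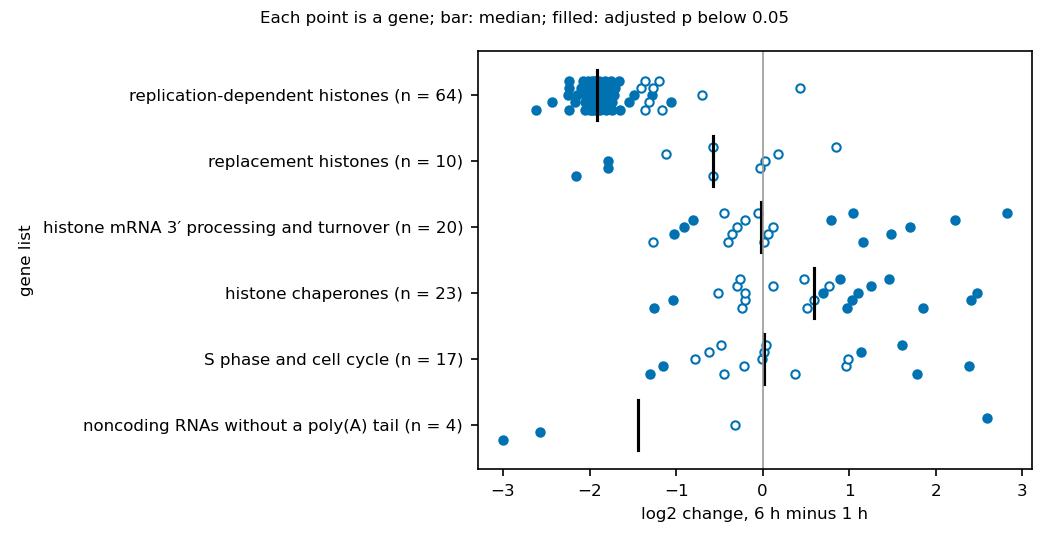
The log2 change from 1 h to 6 h (x) of each gene tested, by list (y), with the median of each list as a bar and genes with an adjusted p below 0.05 filled. The replication-dependent histones sit around -1.91 and the other lists spread over both sides of 0.

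Of 20 genes tested for the 3′ end processing and turnover of histone messages, 7 were higher and 3 lower, with a median of -0.02. Slbp, which encodes the stem-loop binding protein itself, was at 13.6, 17.2 and 13 CPM at 1 h and at 14.4, 13.7, 19.2 and 12.1 CPM at 6 h, overlapping groups (0.06 ± 0.27, adjusted p = 0.868). Casp8ap2, which encodes the processing factor FLASH, rose from 3.67, 9.35 and 5.45 CPM to 38.5, 38.7, 61.6 and 28.2 CPM (2.82 ± 0.35, adjusted p = 0.0064). Tut7, a uridylyl transferase that tags histone messages for decay, rose by 1.48 ± 0.24 (adjusted p = 0.0064). Sympk and Cpsf1, which encode the scaffold symplekin and a subunit of the cleavage and polyadenylation factor, fell, at -1.03 ± 0.28 and -0.91 ± 0.27 (adjusted p = 0.02 and 0.0283). With GC content and length taken out, 4 genes were higher and 1 lower; 3 of the 7 higher genes remained so and 0 of the 3 lower. Casp8ap2 was then at 1.57 (adjusted p = 0.0124), Tut7 at 0.8 (0.0263), Sympk at -0.07 (0.875) and Cpsf1 at -0.2 (0.615).

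Among histone chaperones, which carry histones to chromatin, 10 of 23 tested were higher and 2 lower, with a median of 0.59. Atrx, which works with Daxx to place H3.3, was at 98.8, 83.5 and 98.6 CPM at 1 h and at 486, 445, 965 and 226 CPM at 6 h (2.47 ± 0.4, adjusted p = 0.0064). Npm1 was at 40.4, 62 and 48.8 CPM and then at 141, 156, 785 and 155 CPM (2.41 ± 0.44, adjusted p = 0.00698). Ipo4, an importin that carries histones into the nucleus, and Cabin1, of the HIRA complex, fell by 1.26 ± 0.31 and 1.04 ± 0.26 on the log2 scale (adjusted p = 0.0141 and 0.0151). With GC content and length taken out, 3 genes were higher and 2 lower; Atrx and Npm1 remained of the 10 higher and 0 of the 2 lower, and Rbbp4 (-1.04, adjusted p = 0.0151) and Rbbp7 (-0.88, 0.0278), histone-binding subunits of several chromatin complexes, were then lower. The values of the 4 genes above were then 0.96 for Atrx (adjusted p = 0.0254), 1.61 for Npm1 (0.0224), -0.57 for Ipo4 (0.0987) and -0.41 for Cabin1 (0.198).

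Of 17 tested genes of S phase and the cell cycle, 4 were higher and 2 lower, with a median of 0.01. Pcna, the sliding clamp of DNA replication, was at 37, 31.8 and 32 CPM at 1 h and at 31.7, 39.5, 27.7 and 40.1 CPM at 6 h (0.01 ± 0.25, adjusted p = 0.986). Those higher included Ccne2 (2.38 ± 0.56), Mki67 (1.78 ± 0.49) and Prim1 (1.13 ± 0.38), and the 2 lower were Mcm5 (-1.3 ± 0.43) and E2f1 (-1.15 ± 0.35); adjusted p for these named genes lay between 0.0121 and 0.0421. With GC content and length taken out, 0 of these calls remained: Ccne2 was at 0.63 (adjusted p = 0.376), Mki67 at 1.1 (0.124), Prim1 at 0.59 (0.281), Mcm5 at -1.13 (0.0897) and E2f1 at -0.33 (0.533), and Mcm4, which was not called before, was lower (-1.06, 0.0368). The levels of these genes were low. Of the 5 markers of dividing cells Top2a, Ccnb1 and Cdk1 had 20, 14 and 8 counts over all libraries and were not tested. The 5 summed to 4.2, 5.87 and 4.76 CPM at 1 h and to 8.88, 11.6, 18.1 and 8.24 CPM at 6 h. This uncorrected sum, higher in every 6 h sample, rested mostly on Mki67 and Ccna2, with 87 and 131 counts. Ccna2 was not called (0.96 ± 0.4, adjusted p = 0.0775), and was at 0.43 (0.443) with GC content and length taken out. Cdk1 was at 0.524, 0.653 and 0.116 CPM and then at 0.378, 0, 0 and 0 CPM. Its 8 counts are too few to give a direction, and its 0 in the hippocampus control 6 h sample allows up to 1.7 CPM.

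RNAs that lack a poly(A) tail for other reasons were listed because they share that feature with the members. Counts were present for 6, of which 4 were tested, and they split. Rpph1, the RNA of ribonuclease P, was at 52.2, 121 and 70.9 CPM at 1 h and at 9.26, 4.96, 3.96 and 21.1 CPM at 6 h (-3 ± 0.43, adjusted p = 0.0064). Rmrp, the RNA of ribonuclease MRP, was at 40.9, 25.7 and 23.9 CPM and then at 4.91, 4.77, 0.565 and 10.1 CPM (-2.57 ± 0.51, adjusted p = 0.00859). As for most members, their 6 h values lay below the 1 h values and were highest in the hippocampus conditioned sample. Rnu7, the U7 RNA that pairs with histone messages downstream of the stem-loop, was not called (-0.32 ± 0.25, adjusted p = 0.314), and Malat1, a long nuclear RNA, was higher (2.59 ± 0.39, adjusted p = 0.0064). With GC content and length taken out, Rpph1 was at -1.04 (adjusted p = 0.0279), Rmrp at -0.64 (0.337) and Malat1 at 1.47 (0.018).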

How the data were processed

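RNA-seq of polyribosome-associated RNA gave 1 table of counts per transcript that the authors deposited, as raw whole numbers per RefSeq row. Per the submitters' processing notes, the build was mm9 and the tools were TopHat 1.3.1, CASAVA 1.7, limma 3.12.3 and edgeR; the counting method was not given in the sources used here. Identifiers were matched to symbols through RefSeq and GENCODE M21 tables (97.9% of rows). Counts were fitted here with edgeR 4.0.16 (quasi-likelihood, robust, TMM, filterByExpr; R 4.3.3) in an additive model of time, tissue (0.5 for the summed sample) and training over 7 samples, with 3 residual degrees of freedom, and Benjamini-Hochberg adjustment over all rows. The interaction fit has 2. With no statement of separate animals, p-values reflect the spread among these libraries alone, which may be technical. The fit was also run on simulated counts with a fixed dispersion and no trend in GC content or length. That run checks the code and does not bear on the calls in these data. Alternatives included DESeq2 1.42.0 and limma-voom (limma 3.58.1), other scaling and filters, GC content and length offsets from splines with 5 degrees of freedom, and each library left out. Values are named for the 3 members of highest mean CPM per class, the 3 largest and 3 smallest changes, members outside the pattern, and the 2 genes of smallest p in each direction of each list; others were added after their values were seen. The members and lists were chosen with earlier results of these data known. The floor behind a count of 0 is 3 counts. The values of 1 gene of the S phase list are not reported here.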

Additional observations from a re-analysis of the deposited data

Results flagged for a closer look

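One value lay far from the others of its group. Among the 4 samples at 6 h, H2aw was at 3.07 log2 CPM in the hippocampus control sample, while the other 3 lay between 4.52 and 4.76; the gap took 0.86 of the whole range, above Dixon's 95% limit for 4 values. It was 1 of 50 such checks, and chance passes the limit in about 1 of 20 groups. The value rests on 14 counts.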

How the results depend on the processing

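The direction of the members' median from 1 h to 6 h was negative under every alternative run. Fewer members were called lower with GC content and length taken out (16 of 64, median -0.51, with 4.09% of rows lower). With the histone models that hold a stem-loop also ended there the count was 5 (median -0.25, 4% of rows). With the offsets but without the hippocampus control 6 h library it was 17 (median -0.44, 1047 of 16027 rows). The cause of the loss was not tested. With 1 gene per group of shared sequence 20 of 27 were called, out of fewer genes, beside 17.2% of all rows. Leaving out each library in turn gave 0 to 62 members called lower, against 55. The fit without the cortex control 1 h library called 0 rows. The fit with 62, without the hippocampus conditioned 6 h library, called 3543 of 16380 rows lower. With other scaling, filters, tools or treatment of the conditioned 1 h pair, 51 to 61 were called. Rows called lower in these fits ran from 1658 of 16123, without the pair, to 3388 of 16304, with all 8 libraries. Upper-quartile scaling moved the median of all rows from -0.03 to -0.15 and that of the members to -2.02. For the interaction, leaving out each library gave 0 to 53 members called, with medians from 0.15 to 4.06, and 37 were called with the offsets and without the hippocampus control 6 h library, against 0. Of 63 members with a negative change, 6 turned positive with the offsets and 14 with models also ended at the stem-loop, among the latter H1f4 (0.27), H1f2 (0.08), H4c3 (0.02) and H2aw (0.86). H2bc21 was at -0.12 under both offsets and ranged from -0.22 to 0.78 over libraries left out. For tissue and training, 0 members were called under every alternative; over libraries left out their medians ran from -0.64 to 0.39 and from -0.13 to 0.59. The class sums kept a negative sign in the alternatives run on them, but the GC content and length offsets were not applied to sums. With the conditioned 1 h pair counted once, the exact permutation test cannot give a p below 0.0571. Depth limits the hippocampus control 6 h values of H2A, H2B and H3, most of which rest on 0 to 3 counts.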
